A study of Mus musculus with 6 samples.

Results

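Histone cluster genes are the replication-dependent histone genes that lie side by side in a few places of the mouse genome. The 70 genes described here are those of the 53465 genes in the count table whose symbol begins with Hist1h, Hist2h, Hist3h or Hist4h, the older names for the clusters. By symbol they comprised 6 H1, 20 H2A, 19 H2B, 12 H3 and 13 H4 genes. The Hist1 cluster on chromosome 13 held 56 of them, the Hist2 cluster on chromosome 3 held 10, the Hist3 cluster on chromosome 11 held 3, and Hist4h4 lies alone on chromosome 6 (build GRCm38). The annotation called 67 of them protein coding and 3 pseudogenes (Hist1h2aj, Hist1h2al and Hist3h2bb-ps). Their RNA was measured by sequencing in 6 mouse liver cancer cell lines, each grown from the tumour of a different mouse, so each line counts as 1 biological replicate.

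The 3 Myc_Utx lines (2A, 2B and 2D) came from tumours deficient in Kdm6a, also called Utx, which encodes a histone H3K27 demethylase. The 3 Myc_p53 lines (1, 2 and 3) came from tumours with a p53 knockout and served as the reference. The tumours of both groups had been started in the liver of female C57BL/6 mice, obtained at 8 weeks of age, by delivering a Myc transposon with Cas9 and a guide RNA through the tail vein, so all lines share Myc overexpression. No line with both targeted genes intact was sequenced, and a difference between the groups cannot be told apart as an effect of Kdm6a loss in one group or of the p53 knockout in the other. The purity of the cultures was judged by eye, and fewer cells of a type and less RNA per cell cannot be told apart in such bulk samples.

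Core histones H2A, H2B, H3 and H4 form the particle around which DNA is wrapped, and the linker histone H1 binds where the DNA enters and leaves it. Cells make replication-dependent histone mRNA mainly in S phase, when new DNA has to be packaged. Most of these mRNAs have no intron and no poly(A) tail; they end just after a short stem-loop, which the stem-loop binding protein Slbp recognises. Some of the genes can also give a longer, polyadenylated mRNA that ends further downstream, mainly in cells that have left the cell cycle or differentiated. How RNA was selected for these libraries, by poly(A) tail or otherwise, was not given in the sources used here, and a selection for poly(A) would leave out mRNA that ends at the stem-loop.

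The stem-loop was searched for in the longest GENCODE M21 transcript of every gene, as a perfect stem of 6 bases that starts with GG and whose last base is T, around a loop of 4 bases that starts with TT. It was found in 43 of the 70 histone cluster genes and in 0.137% of 55450 genes in all. In 20 of the 43 it lay within 60 bases of the annotated end, as in a transcript that ends at the stem-loop, and in the other 23 the annotated transcript ran further. The examples shown here are members that the results below turn on, with 5 bases on each side in lower case and the stem-loop in capitals.
Hist1h1c: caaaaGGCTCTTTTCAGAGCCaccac
Hist1h4i: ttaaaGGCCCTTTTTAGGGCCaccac
Hist3h2a: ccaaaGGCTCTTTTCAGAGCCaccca
Hist3h2ba: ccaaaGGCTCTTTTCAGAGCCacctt
Hist1h2ab: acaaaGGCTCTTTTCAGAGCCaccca
After this stretch the annotated transcript went on for 840 bases in Hist1h1c, 330 in Hist1h4i, 1643 in Hist3h2a and 169 in Hist3h2ba, but for only 11 in Hist1h2ab. The left arm of the stem followed the class of histone. All 32 stem-loops of H1, H2A, H2B and H3 genes had the arm GGCTCT, whereas the 11 of H4 genes had GGCCCT in 9 genes and GGTCCT in 2. The annotated transcripts of Hist1h2bc and Hist2h2be, which rank high in the counts below, held no such stem-loop. Others without one had short annotated transcripts, such as Hist1h4k with 312 bases, Hist1h2bn with 381 and Hist1h3h with 411. A stem-loop beyond an annotated end would not be found by this search. A poly(A) signal, AATAAA or ATTAAA, stood in the last 50 bases of 16 of the 70 transcripts, compared with 38.4% of all genes.

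RefSeq (GRCm38.p6) gave a promoter, from 250 bases before to 50 bases after the annotated start, for 61 of the 70 genes. TATAAA, read on the strand of the gene, stood in 30 of the 61 (49.2%), against 8.32% of all 32851 RefSeq promoters of this length. CCAAT, read on both strands, stood in 52 (85.2%, against 37.4%), and was present in all 49 promoters of H1, H2A, H2B and H3 genes but in 3 of 12 H4 promoters. The octamer ATTTGCAT, the site of Oct factors, stood in 13 promoters on either strand (21.3%, against 1.74%), of which 7 belonged to H2A and 6 to H2B genes. Windows of divergent H2A and H2B neighbours can overlap, so a CCAAT or octamer site between them can count in both. The octamer of Hist1h2aa and Hist1h2ba is such a shared site. CACGTG, the E-box that Myc binds, is the same on both strands and stood in 0 of 61, against 7.15% of all promoters. No motif of this search contains another. A match, or its absence from this window, is a description of letters only. The promoters below belong to the H4 gene that rose, to the most counted H1 gene, and to Hist2h2ac, whose window spans the 238 bases shared with its divergent neighbour Hist2h2be, the H2B gene that fell. Capitals mark TATAAA, the CCAAT box and the octamer, the latter pair on either strand.
Hist1h4i promoter, chr13:22041313-22041612, minus strand: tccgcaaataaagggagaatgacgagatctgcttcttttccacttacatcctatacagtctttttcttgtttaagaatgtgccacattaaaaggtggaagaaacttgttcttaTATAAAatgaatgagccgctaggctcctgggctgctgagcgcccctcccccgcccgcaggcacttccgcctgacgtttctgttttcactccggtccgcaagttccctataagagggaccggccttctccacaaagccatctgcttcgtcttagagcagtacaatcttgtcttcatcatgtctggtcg
Hist1h1c promoter, chr13:23738557-23738856, plus strand: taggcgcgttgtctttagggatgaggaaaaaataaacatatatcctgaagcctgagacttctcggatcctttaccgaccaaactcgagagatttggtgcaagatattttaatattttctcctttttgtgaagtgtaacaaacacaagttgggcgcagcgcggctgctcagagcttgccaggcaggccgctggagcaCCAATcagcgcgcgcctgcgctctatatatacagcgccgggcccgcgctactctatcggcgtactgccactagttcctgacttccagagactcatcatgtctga
Hist2h2ac promoter, chr3:96220831-96221130, minus strand: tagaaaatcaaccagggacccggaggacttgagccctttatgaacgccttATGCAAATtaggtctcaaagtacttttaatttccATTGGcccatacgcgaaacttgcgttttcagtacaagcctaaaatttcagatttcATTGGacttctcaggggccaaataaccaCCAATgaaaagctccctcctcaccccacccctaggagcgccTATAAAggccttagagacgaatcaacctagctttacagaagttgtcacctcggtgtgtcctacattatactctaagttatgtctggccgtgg
The Hist1h4i window held TATAAA but no CCAAT, the Hist1h1c window held CCAAT but no TATAAA, and the Hist2h2ac window held TATAAA, the octamer and CCAAT.

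The libraries held between 4656103 and 6937497 counted reads, and the histone cluster genes took 0.0150% to 0.0217% of them. Kdm6a, the gene targeted in the Myc_Utx lines, had 199, 244 and 220 counts in Myc_Utx 2A, 2B and 2D and 440, 348 and 298 in Myc_p53 1, 2 and 3. It was not called different (edgeR quasi-likelihood test, log2 fold change -0.39, adjusted p = 0.243). The study reported indels in Kdm6a and loss of the protein in cell lines from such tumours, and RNA counts measure neither. The hepatocyte defining markers Alb and Afp did not exceed 26 counts in any line. Of 9 hepatocyte and biliary markers the summed level was 106.9 to 192.3 normalized CPM (counts scaled by library size and TMM factor) in Myc_Utx and 135.5 to 1650 in Myc_p53 lines, where lines 1 and 3 stood apart through the keratins Krt8, Krt18 and Krt19. The 11 macrophage markers summed to 37.6 to 56.04 CPM in Myc_Utx and 59.9 to 132.5 in Myc_p53 lines. Of these, 5 were called lower in Myc_Utx and 1 higher (Cd14), and Adgre1, Ptprc and Tyrobp were at 0 in every Myc_Utx line. Cd14 made up most of the Myc_Utx sums, with 53.2, 34.3 and 32.3 CPM against 19.3, 18.9 and 21.7 in Myc_p53 lines. Csf1r, one of the 5 called lower, had at most 0.19 CPM in Myc_Utx and 7.23 to 40.9 in Myc_p53 lines. The 7 fibroblast markers summed to 1946 to 2679 CPM in Myc_Utx and 35.2 to 3151 in Myc_p53 lines, without a call. Col3a1 made up most of this sum in every Myc_Utx line (1731, 2301 and 2558 CPM) and in Myc_p53 2 (2721 CPM). Col1a1, Col1a2, Pdgfra and Dcn had lower means in Myc_Utx, Col3a1 and Pdgfrb had higher ones, and Lum was near 0. The 4 endothelial markers summed to at most 1.14 CPM in any line. The part of these cell types in the histone results was not tested.

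The histone cluster genes were little counted, and a few genes carried most of the counts. Of the 70 genes, 56 had at least 1 count in any line, 14 had none, 32 had fewer than 10 over all 6 lines, 32 had 10 to 100 and 6 had more than 100. Of the 6477 counts of all members, 81.3% fell on 5 genes: Hist1h1c, Hist1h2bc, Hist1h4i, Hist2h2be and Hist3h2a. All of these except Hist1h2bc had a poly(A) signal in the last 50 bases of the transcript. In H1, Hist1h1c took 90.7% of the counts of its class, in H4 Hist1h4i took 73.1%, in H2B Hist1h2bc took 69.8% and in H2A Hist3h2a took 55.4%. The H3 class had no such gene, since Hist1h3g, its most counted member, took 28.3% of 226 counts.

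Per kilobase of transcript, the order of levels over all 6 lines began with Hist1h1c at 51.1 CPM per kilobase, Hist1h2bc at 37.8 and Hist1h4i at 24.7. The leading members of the other classes were far below these. Hist1h4k, the next H4 gene, had 3.77, Hist1h3g had 3.65, Hist2h2be had 3.62 and Hist3h2a, the leading H2A gene, had 2.91 CPM per kilobase. The annotated transcript of Hist1h4k is the shortest of all members, at 312 bases, which raises its level per kilobase. Hist1h1b, the next H1 gene, had 1.92, Hist1h3c had 1.82 and Hist1h2ab had 1.75. Hist4h4, an H4 gene that can give polyadenylated mRNA, had 0.0881 CPM per kilobase from 8 counts. The germ cell members were at or near 0: Hist1h1t, the H1 of spermatocytes, had 1 count over the 6 lines, and Hist1h2aa and Hist1h2ba, the testis forms of H2A and H2B, had none.

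Copies of nearly the same sequence bear on these levels, because a short read from one copy may also match another. The share of 50-base words of a transcript that occur in no other gene, on either strand, was 45.5% in the median member, and 5 members (Hist2h2aa1, Hist2h2aa2, Hist2h2bb, Hist2h3b and Hist2h3c1) had no such word and no count. Each of these 5 also overlaps another annotated gene at the same place. Words shared with an overlapping gene and words shared with a copy elsewhere were not told apart. Of the 19 members under 15%, 10 had no count and none had more than 15. Members with at least 50% of words of their own (34 genes) had a median of 27 counts and the other 36 had a median of 6. Over the 70 genes, Spearman's rho with total counts was 0.634 for the share of unique words and 0.484 for transcript length; all points share the same libraries, genes are not independent replicates, and longer transcripts also had more unique words (rho 0.535). How reads with several matches, or reads in overlapping genes, were treated was not given in the sources used here, so levels of members that share most of their words are uncertain.

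**Figure D1:**
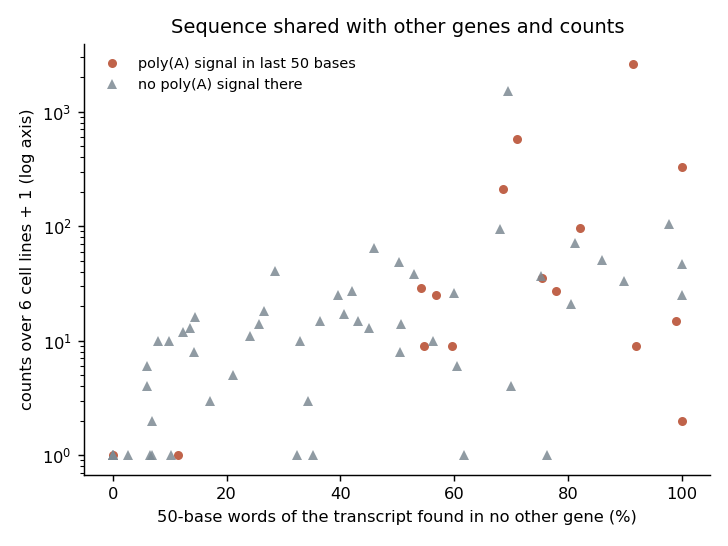
Counts summed over the 6 cell lines, plus 1, on a log axis, against the percentage of the 50-base words of each gene's longest transcript that occur in no other gene; each of 70 points is a histone cluster gene, and circles mark a poly(A) signal in the last 50 bases. No gene under 15% has more than 15 counts, and the genes with the most counts lie at 68.5% or above.

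Whether the members differed between Myc_Utx and Myc_p53 lines was tested with edgeR on all 11510 genes that passed its filter on low counts, of which 9 were histone cluster genes. The other 61 were not tested. Positive log2 fold changes stand for higher levels in Myc_Utx lines, and a call needs a Benjamini-Hochberg adjusted p under 0.05. Of the 9 tested members, 1 was called higher (Hist1h4i) and 1 lower (Hist2h2be), beside 6.99% of all tested genes called higher and 7.69% called lower, and 3 had an unadjusted p under 0.05. The median log2 fold change of the 9 was 0.28, with 5 above 0, and that of all genes tested was -0.01. A two-sided exact permutation test of a single gene cannot give a p below 0.1 with 3 lines against 3, so the calls rest on the model.

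**Figure D2:**
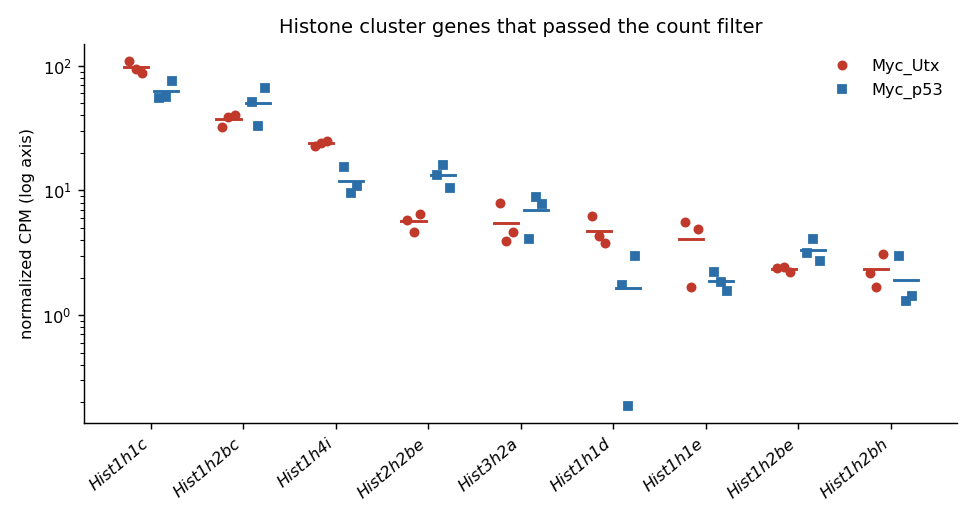
Normalized CPM on a log axis of the 9 histone cluster genes that passed the count filter, in order of mean level; circles are the 3 Myc_Utx and squares the 3 Myc_p53 lines, and horizontal bars are group means. All Myc_Utx lines lie above all Myc_p53 lines for Hist1h4i, Hist1h1c and Hist1h1d, and below them for Hist2h2be and Hist1h2be.

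H4 is the core histone that pairs with H3, and Hist1h4i (ENSMUSG00000060639, chr13:22040636-22041362, minus strand, a single exon of 727 bases) was its most counted gene. Hist1h4i had 115, 129 and 112 counts in Myc_Utx 2A, 2B and 2D and 98, 51 and 76 in Myc_p53 1, 2 and 3. As normalized CPM these were 22.9, 24.2 and 24.9 against 15.5, 9.45 and 10.8. All 3 Myc_Utx lines lay within a narrow range above every Myc_p53 line, and among the latter line 1 was highest. The means were 24.0 ± 1.01 (SD, n = 3) and 11.9 ± 3.16 (SD, n = 3), and the log2 fold change was 1.01 (standard error 0.24, edgeR adjusted p = 0.0407). This call was lost when any line other than Myc_p53 1 was left out (log2 fold change 0.87 to 1.23, adjusted p 0.0382 to 0.122) and when the transcript length of all genes was corrected in each line (0.70, adjusted p = 0.0911). It was also lost without the filter on low counts (adjusted p = 0.0555) and with total counts only as scaling (adjusted p = 0.0514), so that 3 of the 6 alternatives with all lines called it.

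The other 12 H4 genes were far lower, 11 of them with any count, and none was tested. Their summed level was 4.99, 8.43 and 11.1 CPM in Myc_Utx and 5.21, 5.38 and 4.56 CPM in Myc_p53 lines, so that the groups overlapped through line 2A. Hist1h4k, the second H4 gene per kilobase, had 4, 8 and 7 against 14, 0 and 7 counts, which also overlapped. With Hist1h4i included, the H4 class summed to 32.2 ± 4.09 (SD, n = 3) against 17.0 ± 3.24 CPM (SD, n = 3), without overlap.

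Of H2B, which pairs with H2A, Hist2h2be fell and the more abundant Hist1h2bc did not pass the test. Hist2h2be (ENSMUSG00000068854, chr3:96221119-96223738, plus strand, a single exon of 2620 bases) had 29, 25 and 29 counts in Myc_Utx 2A, 2B and 2D and 84, 87 and 74 in Myc_p53 1, 2 and 3. The normalized CPM were 5.78, 4.68 and 6.46 against 13.3, 16.1 and 10.6. All Myc_Utx lines were below all Myc_p53 lines, with means of 5.64 ± 0.90 (SD, n = 3) and 13.3 ± 2.79 (SD, n = 3). The log2 fold change was -1.24 (standard error 0.28, edgeR adjusted p = 0.0362). It kept its direction when each line was left out in turn (-1.38 to -1.08), but none of those 6 fits called it (adjusted p 0.0650 to 0.116), nor did the fit without a filter on low counts (adjusted p = 0.0674). Every 50-base word of this transcript was unique to the gene.

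Hist1h2bc (ENSMUSG00000018102, chr13:23684199-23692908, plus strand, 2 exons) had 163, 206 and 181 counts in Myc_Utx and 323, 176 and 469 in Myc_p53 lines. Its normalized CPM of 32.5, 38.6 and 40.3 overlapped those of Myc_p53, 51.0, 32.6 and 66.9, where line 2 was low. The log2 fold change of -0.44 (standard error 0.27) did not pass the test (edgeR adjusted p = 0.296). Hist1h2be had 2.39, 2.43 and 2.23 CPM against 3.16, 4.08 and 2.71, lower in every Myc_Utx line by a small margin, with a log2 fold change of -0.49 (edgeR adjusted p = 0.309). Its annotated gene overlaps Hist1h1e on the same strand, so reads of the shared stretch cannot be assigned by strand to either. Hist1h2bh did not pass either (0.28, edgeR adjusted p = 0.706), with 2.19, 1.69 and 3.12 against 3.002, 1.30 and 1.43 CPM. The H2B class as a whole summed to 53.6 ± 5.77 (SD, n = 3) against 72.7 ± 14.6 CPM (SD, n = 3), and the groups overlapped.

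Hist3h2ba, an H2B gene of the Hist3 cluster that is named here because of its values, had no count in any Myc_Utx line. In Myc_p53 1, 2 and 3 it had 5, 3 and 18 counts, so line 3 gave most of them. Set against a floor of 3 counts over the group, its level was at least 6.87-fold lower in Myc_Utx lines, and at least 3.38-fold lower without Myc_p53 3. It did not pass the filter on low counts and was not tested.

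H1 genes were higher in Myc_Utx lines in their means, although none was called by edgeR. Hist1h1c (ENSMUSG00000036181, chr13:23738808-23740367, plus strand, a single exon of 1560 bases), the most counted of all members, had 546, 506 and 393 counts in Myc_Utx and 352, 303 and 530 in Myc_p53 lines. After scaling to library size the CPM were 108.9, 94.7 and 87.5 against 55.6, 56.2 and 75.6. Every Myc_Utx line lay above every Myc_p53 line, and line 3 of Myc_p53 came nearest. The log2 fold change was 0.64 (standard error 0.17), with an adjusted p of 0.0531 in edgeR. Of the alternatives with all lines DESeq2 alone called it (adjusted p = 0.0169), transcript length offsets gave 0.41 (edgeR adjusted p = 0.189), and no fit that left out a line called it (edgeR adjusted p 0.0627 to 0.136).

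Hist1h1d had 6.18, 4.31 and 3.79 CPM in Myc_Utx and 1.74, 0.19 and 2.99 in Myc_p53 lines, without overlap and with a low value in Myc_p53 2 (log2 fold change 1.496, standard error 0.74, edgeR adjusted p = 0.201). Hist1h1e had 5.58, 1.69 and 4.90 against 2.21, 1.85 and 1.57 CPM, where Myc_Utx 2B lay among the Myc_p53 lines (1.10, standard error 0.50, edgeR adjusted p = 0.175). Hist1h1b, the next H1 gene per kilobase, was not tested and had 6, 7 and 14 against 5, 3 and 11 counts. All 6 H1 genes had a higher mean CPM in Myc_Utx lines, beside 40.3% of all 24221 genes with a count, tested or not. For 3 of them the groups did not overlap, beside 21.1% of all tested genes higher without overlap. Of the 3, Hist1h1a was not tested. Its counts of 5, 3 and 10 against 3, 3 and 0 were separated only by scaling, with nearest values of 0.562 against 0.556 CPM. The class summed to 122.9, 102.8 and 101.5 CPM in Myc_Utx and 60.8, 59.3 and 81.7 in Myc_p53 lines, of which Hist1h1c made up most.

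No H2A or H3 gene was called, and only 1 of them passed the filter on low counts. Hist3h2a (ENSMUSG00000078851, chr11:58954685-58956830, plus strand) was that gene, with 40, 21 and 21 counts in Myc_Utx and 26, 48 and 55 in Myc_p53 lines. The CPM of 7.98, 3.93 and 4.68 overlapped 4.11, 8.90 and 7.84, with line 2A high in its group and Myc_p53 1 low in its own (log2 fold change -0.33, standard error 0.43, edgeR adjusted p = 0.619). Hist3h2a overlaps Trim17 on the same strand, and all 20 H2A genes overlap an annotated gene on the opposite strand; the strand setting of the counting was not given in the sources used here.

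Hist1h2ab, an H2A gene whose transcript ends just after the stem-loop, had 7, 10 and 5 counts in Myc_Utx and 1, 0 and 3 in Myc_p53 lines. The 19 H2A genes other than Hist3h2a summed to 7.25 ± 1.56 (SD, n = 3) against 3.39 ± 0.90 CPM (SD, n = 3), and the groups did not overlap. Of H3, the core histone that carries the H3K27 mark, Hist1h3g had 7, 8 and 15 counts against 10, 9 and 15, and Hist1h3c had 7, 7 and 8 against 5, 4 and 6. The CPM of Hist1h3g overlapped, while those of Hist1h3c did not, at 1.40, 1.31 and 1.78 against 0.79, 0.74 and 0.86. The 12 H3 genes summed to 6.98, 7.30 and 11.8 CPM in Myc_Utx and 5.69, 4.45 and 5.56 in Myc_p53 lines, with every Myc_Utx line above and line 2D highest.

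**Figure D3:**
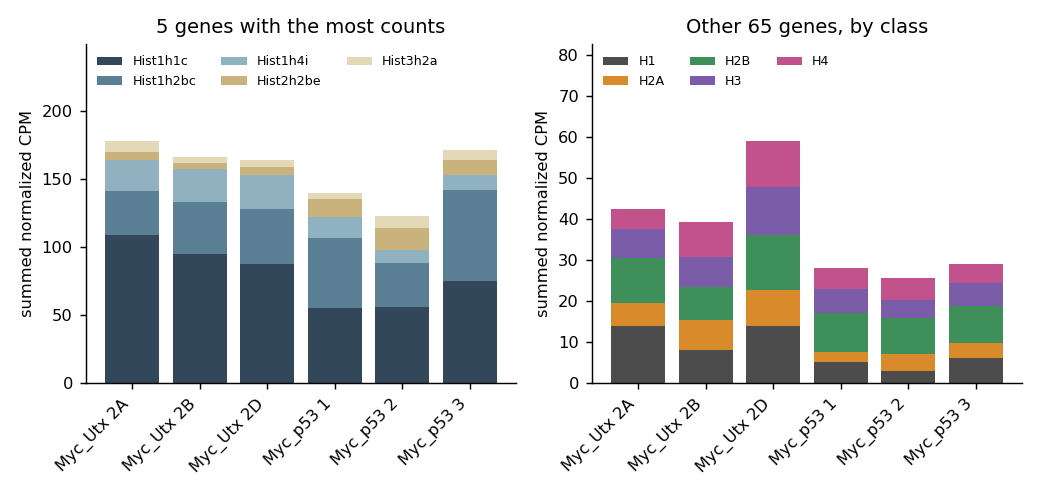
Summed normalized CPM in each cell line, as stacked bars from 0, of the 5 most counted histone cluster genes (left, by gene) and of the other 65 (right, by class). On the left Myc_p53 3 reaches 171.7, within the Myc_Utx range of 163.9 to 178.1; on the right the Myc_Utx lines reach 39.3 to 59.0 and the Myc_p53 lines 25.8 to 29.1.

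The many little-counted members lay mostly on one side. Of the 56 members with a count, 46 (82.1%) had a higher mean CPM in Myc_Utx and 10 a lower one, against the 40.3% of all counted genes; the Myc_Utx libraries had 15224223 counts together and the Myc_p53 libraries 18432876. Among the 47 untested members with a count, 41 had a higher mean. Outside the 5 most counted genes, 18 members had a higher normalized CPM in every Myc_Utx line than in any Myc_p53 line and 3 a lower one (Hist1h2be, Hist2h3c2 and Hist3h2ba). In most of the 18 the lowest Myc_Utx count equalled the highest Myc_p53 count, and only scaling to library size separated the groups. Hist2h2ac, for example, had 2, 1 and 7 against 1, 1 and 0 counts, and its nearest values were 0.187 against 0.185 CPM. Among all tested genes, 21.1% were higher and 20.9% lower without overlap, but the members here mostly had fewer counts than tested genes have. The 65 members outside the 5 summed to 42.5, 39.3 and 59.0 CPM in Myc_Utx 2A, 2B and 2D and to 28.1, 25.8 and 29.1 in Myc_p53 1, 2 and 3. The Myc_Utx lines were all higher, 2D most of all, with means of 46.9 ± 10.6 (SD, n = 3) and 27.7 ± 1.71 CPM (SD, n = 3). With the 5 included, all 70 summed to 216.3 ± 9.50 (SD, n = 3) against 172.5 ± 26.2 CPM (SD, n = 3).

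Leaving out a line changed the number with a higher mean from 46 to between 39 (without Myc_Utx 2D) and 45. Of the 34 members with at least 50% unique words, 25 had a higher mean in Myc_Utx and 7 a lower one. No p was computed for these counts and sums, since the members share libraries and in part share sequence.

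**Figure D4:**
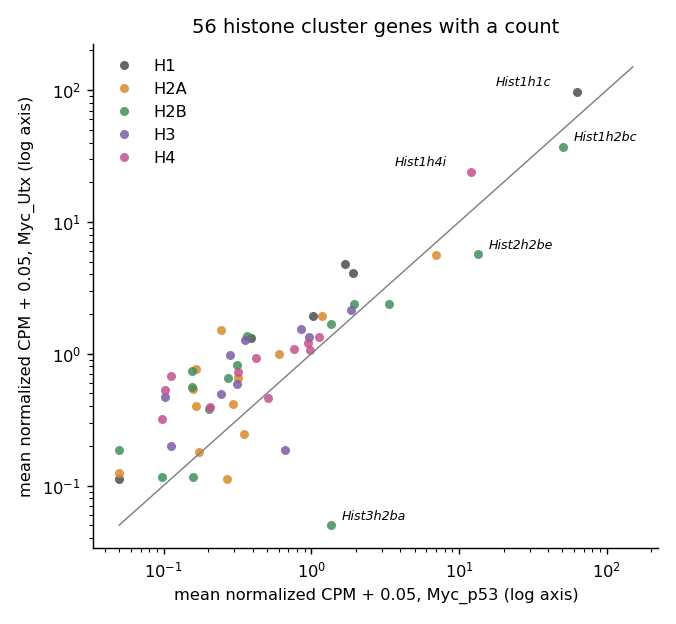
Mean normalized CPM plus 0.05 in Myc_Utx (vertical) against Myc_p53 (horizontal), both on log axes, for the 56 histone cluster genes with a count, coloured by class; the grey line marks equal means. Above the line lie 46 genes and below it 10, among them Hist2h2be, Hist1h2bc and Hist3h2ba.

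Transcripts annotated to end at the stem-loop were compared with those annotated to run past it. The 20 members with a stem-loop within 60 bases of the end, of which 15 had a count, summed to 8.78, 7.68 and 13.6 CPM in Myc_Utx and to 2.53, 3.34 and 3.56 in Myc_p53 lines. Every Myc_Utx line was higher, and 14 of the 15 had a higher mean there. The 23 members whose transcript runs further summed to 152.8 ± 11.2 (SD, n = 3) against 100.02 ± 11.9 CPM (SD, n = 3), mostly Hist1h1c and Hist1h4i. Without the 5 most counted genes these were 26.2 ± 3.30 (SD, n = 3) against 18.7 ± 1.11 CPM (SD, n = 3). The 27 members without a stem-loop in the annotated transcript, among them Hist1h2bc and Hist2h2be, summed to 53.5 ± 8.37 (SD, n = 3) against 69.3 ± 14.9 CPM (SD, n = 3), which overlapped. Without Hist1h2bc and Hist2h2be the direction was the opposite, at 10.7 ± 4.42 (SD, n = 3) against 5.82 ± 0.71 CPM (SD, n = 3), higher in every Myc_Utx line. The absence of a stem-loop concerns the annotated transcript only, which was short in several of the 27 members. Whether the groups of members differ from each other was not tested.

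The clusters held different mixtures of these levels. Hist1 summed to 203.4 ± 6.86 (SD, n = 3) in Myc_Utx and 149.5 ± 28.3 CPM (SD, n = 3) in Myc_p53, with 44 of its 48 counted members higher in their mean. Hist2 summed to 6.38, 5.43 and 8.91 CPM against 14.1, 17.6 and 11.8, lower in every Myc_Utx line and made up mostly of Hist2h2be. Hist3 overlapped between the groups, at 8.18, 3.93 and 4.68 against 4.90, 9.64 and 10.6 CPM.

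Within Hist1, 55 of the 56 members fell into blocks with gaps over 200 kb between them, and the pseudogene Hist1h2al lay apart on the same chromosome. The block of 19 genes with the lowest coordinates summed to 8.64 ± 3.45 (SD, n = 3) against 4.47 ± 1.35 CPM (SD, n = 3), which overlapped. The middle block of 5 genes, which holds Hist1h4i, summed to 26.002 ± 1.42 (SD, n = 3) against 12.6 ± 2.90 CPM (SD, n = 3). The block of 31 genes that holds Hist1h1c and Hist1h2bc summed to 168.8 ± 6.39 (SD, n = 3) against 132.3 ± 27.6 CPM (SD, n = 3).

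**Figure D5:**
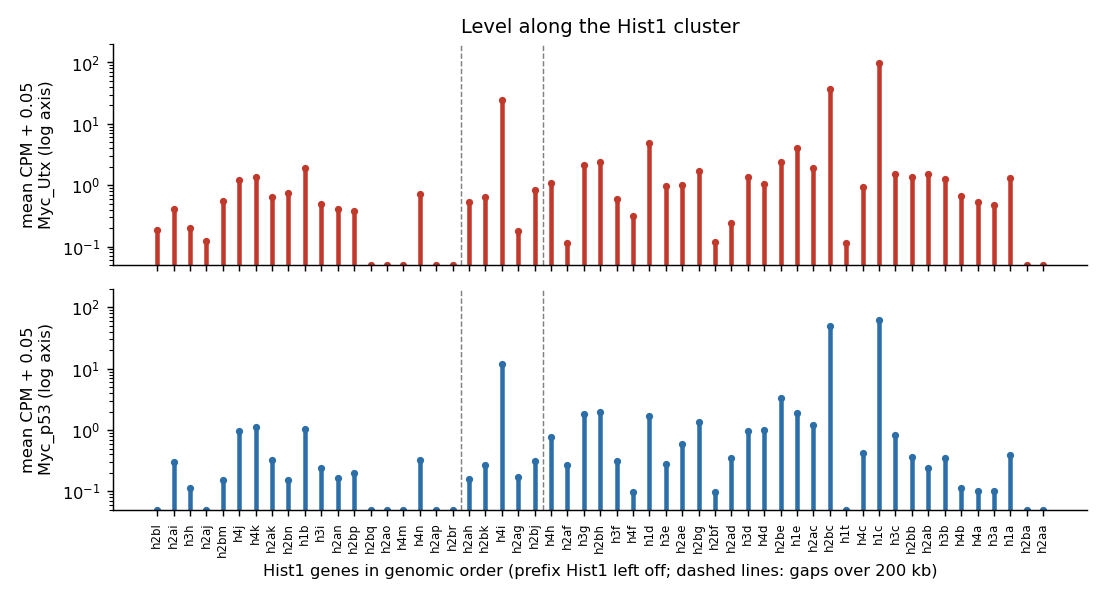
Mean normalized CPM plus 0.05, on a log axis, of 55 genes of the Hist1 cluster in genomic order, in Myc_Utx (top) and Myc_p53 lines (bottom); genes at the bottom of an axis have no count in that group, and dashed lines mark gaps over 200 kb. Hist1h4i, Hist1h2bc and Hist1h1c stand out in both groups, and their neighbours stay under 5 CPM.

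Divergent neighbours could differ widely in their counts. In 14 places an H2A and an H2B gene start 172 to 305 bases apart and run in opposite directions, which covers 28 members. In 11 of these pairs both genes had counts, and both had a higher mean in Myc_Utx in 7, both a lower mean in 1 and opposite directions in 3. Some of these directions rest on very few counts over all lines, such as 1 for Hist1h2aj, 2 for Hist1h2bl and 4 for Hist1h2ag. They stand beside the 82.1% of all counted members with a higher mean in Myc_Utx. Hist2h2ac, on the other side of the promoter printed above from Hist2h2be, had 2, 1 and 7 counts in Myc_Utx and 1, 1 and 0 in Myc_p53 lines, against 328 counts of Hist2h2be over all lines. Hist1h2ac had 50 counts over all lines and its partner Hist1h2bc had 1518, and the former had the higher mean in Myc_Utx and the latter in Myc_p53.

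The genes that make, process and use histones were read from lists beside the members, and their calls stand beside the 6.99% of all tested genes called higher and 7.69% called lower. Most replication-independent histone genes give polyadenylated mRNA and are expressed throughout the cell cycle. Those listed were far more abundant, with a summed level of 1959 to 2286 CPM in Myc_Utx and 1610 to 1797 in Myc_p53 lines. Of 12 listed, 11 were tested, 2 rose and none fell, with a median log2 fold change of 0.24. H2afy2, which encodes macroH2A2, had 74.2, 30.1 and 24.5 CPM against 1.74, 2.59 and 5.28 (log2 fold change 3.72, standard error 0.61, edgeR adjusted p = 0.0189). All Myc_Utx lines exceeded all Myc_p53 lines, and 2A was highest. H3f3b, a gene of the variant H3.3, had a log2 fold change of 0.62 (edgeR adjusted p = 0.0323), while H3f3a, which encodes the same protein, had 0.05 (edgeR adjusted p = 0.787). With each line left out in turn, H2afy2 was called in 2 and H3f3b in 1 of the 6 fits.

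Of 20 genes that transcribe, process or degrade histone mRNA, all were tested, none rose, 2 fell and 13 had a log2 fold change above 0 (median 0.10). Npat, the coactivator of replication-dependent histone genes, had 71.2, 59.2 and 62.1 CPM in Myc_Utx and 94.5, 94.3 and 96.2 in Myc_p53 lines (log2 fold change -0.57, standard error 0.12, edgeR adjusted p = 0.0310). Hinfp, a transcription factor of H4 promoters, had 21.7, 24.0 and 24.7 against 42.8, 52.3 and 43.8 CPM (-0.98, standard error 0.15, edgeR adjusted p = 0.0185). Both were lower in every Myc_Utx line, although Npat was called in 1 and Hinfp in 2 of the 6 fits that left out a line. Slbp, which binds the stem-loop printed above, differed little, with a log2 fold change of 0.00 and a standard error of 0.14 (edgeR adjusted p = 0.994).

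Histone chaperones and importers carry new histones to the DNA. All 20 listed were tested, 2 rose and none fell (median log2 fold change 0.25, 15 above 0). The risen genes were the H2A-H2B chaperones Nap1l1 (0.52, edgeR adjusted p = 0.0239) and Nap1l4 (0.78, edgeR adjusted p = 0.0171), each called in 2 of the 6 fits that left out a line. Nasp, a chaperone of H3 and H1, was higher in every Myc_Utx line but did not pass (0.48, edgeR adjusted p = 0.0580).

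Of 24 genes of DNA replication and S phase entry, all were tested, 5 rose, none fell and 19 were not called, and 23 had a log2 fold change above 0, with a median of 0.27. Without Myc_Utx 2A, none of the 24 was called, nor was any histone cluster gene or any gene of the other lists. The share of all tested genes called in that fit is not given here. Rrm2, a subunit of ribonucleotide reductase, had 391.9, 390.0 and 425.5 CPM in Myc_Utx and 179.2, 160.1 and 188.5 in Myc_p53 lines, a log2 fold change of 1.19 (standard error 0.11, edgeR adjusted p = 0.0103). Its partner Rrm1 rose by 0.70, cyclin E1 (Ccne1) by 1.65, and the replicative helicase subunits Mcm5 and Mcm6 by 0.62 and 0.55 on the log2 scale (edgeR adjusted p 0.0171 to 0.0452 over these 4). With each line left out in turn, Rrm2 was called in 5 fits, Rrm1 and Ccne1 in 3 each, and Mcm5 and Mcm6 in 1 each. The list summed to 4303, 4198 and 4691 CPM in Myc_Utx 2A, 2B and 2D and to 3254, 3085 and 3441 in Myc_p53 1, 2 and 3. Line 2D was the highest of its group here and in the sum of the 65 little-counted histone genes, and Myc_p53 2 was the lowest of its group in both. The part of these genes' levels in the histone results was not tested.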

How the data were processed

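RNA of 3 Myc_Utx and 3 Myc_p53 mouse liver cancer cell lines was sequenced, and the values the authors deposited are raw read counts for each Ensembl gene, not normalized. The submitters' processing notes name Trimmomatic 0.36, STAR 2.5.3a, featureCounts 1.6.3, DESeq2 1.20.0 and GRCm38; the methods of the study name another counter and a human build. The coordinates of 96.1% of genes and of all 70 members equal those of GENCODE M21. Poly(A) selection, strand and the handling of multiply matching reads were not given in the sources used here. Total counts were 4656103 to 6937497 per library, and no pair of libraries agreed within sampling noise. The common dispersion of 0.112 is a biological coefficient of variation of 33.4%.

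Groups were compared with edgeR 4.0.16 in R 4.3.3 (filterByExpr with a minimum count of 10, TMM, quasi-likelihood F test, Benjamini-Hochberg adjustment over 11510 genes). Standard errors were derived from the F statistic and the log2 fold change. A level of 3 counts over a group was taken as the floor; it covers counting error only. The procedure was tested on simulated data. Members and gene lists were chosen with earlier results of these data known. Named members are those called, the 2 highest per kilobase of each class, those known to give polyadenylated mRNA, and germ cell forms. The other tested members and Hist3h2ba, Hist2h3c2, Hist2h2ac, Hist1h2ac and Hist1h1a were added after their values had been seen. Alternatives were other filters and scalings, offsets for transcript length (a robust regression of MASS 7.3.60.0.1 on a natural spline, 5 degrees of freedom), leaving out each line, and DESeq2 1.42.0. The gene targeted in the Myc_p53 lines is not reported here, and no reads were realigned.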

Additional observations from a re-analysis of the deposited data

How the results depend on the processing

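Counts were too few for a test of 61 of the 70 members, and 21 had no more than 3 counts in either group. Of the 1 member called higher and the 1 called lower, none was called in either direction without a filter on low counts, where all 56 members with a count entered and 9 had an unadjusted edgeR p under 0.05 (DESeq2 called 2 higher and 1 lower, with 5 such p). With total counts only and with transcript length offsets, 0 were called higher and 1 lower. The share of all tested genes called is given for the main fit only. A change in the number of members called under an alternative therefore cannot be told apart from a change in calls over all genes. The median log2 fold change of the members tested, 0.28, was 1.01 without a filter, 1.07 in DESeq2 and -0.42 with at least 10 counts in every line, which left 6 members. Leaving out each line in turn gave 0 to 1 called higher (1 only without Myc_p53 1), 0 to 0 called lower, 3 to 4 members with an unadjusted edgeR p under 0.05, and a median of 0.04 to 0.44. In alternatives that were added with the data in view, the number of members with a higher mean CPM in Myc_Utx was 39 to 45 without a line and 25 among the 34 with mostly unique words, against 46.

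Of the gene lists, histone mRNA processing and transcription genes called lower changed from 2 to 1 both without a filter and with length offsets, the offsets also called 1 higher, and DESeq2 called 5 chaperone genes higher in place of 2. Leaving out a line gave 0 to 2 replication-independent histone genes higher, 0 to 2 processing genes lower, 0 to 5 chaperone genes higher and 0 to 6 S phase genes higher. Of the 60 values of single named members under an alternative, 44 kept direction and side of the threshold, 15 (of Hist1h4i and Hist2h2be) kept the direction without a call, 1 (Hist1h1c in DESeq2) gained a call and none turned its direction. The share of all genes called under these alternatives is not given here, and the cause of these changes was not tested. No paired analysis was possible because the labels give the lines of either group different replicate names.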
